A study of Mus musculus with 4 samples.

Results

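The uroplakins and the genes that mark differentiation of the urothelium, the lining of the urinary tract, were followed in embryonic mouse kidney under maternal iron deficiency. The members are 9 genes listed by symbol (Upk1a, Upk1b, Upk2, Upk3a, Upk3b, Trp63, Krt5, Grhl3 and Psca), and every probe set that the platform annotation assigns to just 1 of these symbols was taken. This gave 16 of the 45101 probe sets on the array. The genes were picked by name, with earlier results of these data known, so counts over them are a description. Kidneys of C57BL/6 embryos at embryonic day 15 were compared between dams on a control diet (220 ppm iron) and dams on a synthetic iron-deficient diet (2 to 6 ppm iron), with diets begun 3 weeks before gestation in females aged 8 weeks. The labels name no allele and no agent other than the diet for either group. There were 2 pools of 16 kidneys per diet, each hybridised after biotin labelling to its own Affymetrix Mouse Genome array. The labels do not say how much ureter or renal pelvis stayed on the kidneys, nor whether each pool drew on its own litters, so p-values cover just the spread from pool to pool, which may be technical.

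Uroplakins are membrane proteins that assemble into the rigid plaques on the luminal face of the urothelium and make it nearly impermeable to urine. The tetraspanin UPK1A pairs with UPK2 and the related tetraspanin UPK1B pairs with UPK3A or UPK3B, and pairing helps them to leave the endoplasmic reticulum. The urothelium lines the renal pelvis and ureter. In mature urothelium basal cells carry the transcription factor p63 (Trp63) and keratin 5 (Krt5), and the Grainyhead factor GRHL3 acts in terminal differentiation of the surface cells. Upk1b and Upk3b are also known from mesothelium, and Trp63 and Krt5 from the skin and other stratified epithelia.

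Of the 9 genes, 5 have a promoter window in the RefSeq table of the GRCm38.p6 assembly, covering 250 bases before and 50 bases after the gene's start. The windows of Upk3a and Upk3b are printed because these relatives gave the largest and one of the smallest differences between the diets. Capitals mark matches to a GATA motif (GATAA) or a GC box (GGGCGG) on either strand.
Upk3a, chr15:85016891-85017190, plus strand: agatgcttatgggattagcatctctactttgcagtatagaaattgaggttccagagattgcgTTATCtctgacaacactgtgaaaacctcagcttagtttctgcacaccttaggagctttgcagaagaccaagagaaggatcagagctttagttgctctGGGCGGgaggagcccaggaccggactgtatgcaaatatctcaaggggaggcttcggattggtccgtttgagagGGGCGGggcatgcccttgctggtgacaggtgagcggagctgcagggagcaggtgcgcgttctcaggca
Upk3b, chr5:136038246-136038545, plus strand: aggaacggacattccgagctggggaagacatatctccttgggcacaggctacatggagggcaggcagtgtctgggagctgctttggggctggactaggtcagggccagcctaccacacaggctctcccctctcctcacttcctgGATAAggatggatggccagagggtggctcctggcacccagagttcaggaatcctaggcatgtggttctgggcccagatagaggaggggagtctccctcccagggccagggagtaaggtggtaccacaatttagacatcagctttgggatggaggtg
The Upk3a window holds GATAA on the minus strand at position -188 from the start and GGGCGG on the plus strand at positions -91 and -18. The Upk3b window holds GATAA on the plus strand at position -106 and no GGGCGG. Of 32851 windows of this length in the table, 25.4% hold GATAA and 35.7% hold GGGCGG. The motifs AACCGG (the Grainyhead core), TGTTTA (forkhead) and TATAAA (the TATA box), found in 6.83%, 13.4% and 13.6% of windows, have no match in either window. The Upk1a window has no match to any of the 5 motifs. Krt5 has GATAA at position -30 on the plus strand, and Grhl3 has GGGCGG at position -53 on the minus strand. No motif overlaps another in these windows, and a match is only a description of the letters.

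The signals are the deposited intensities in array units. A background was taken on each array as the highest of 27 control probe sets for bacterial transcripts that were not spiked in, at 8.5 and 8.2 in control pools 1 and 2 and at 14.4 and 13.3 on the iron-deficient arrays. Of the 16 probe sets, 8 were above background on all 4 arrays and 3, all of Trp63, on none. A single control set the higher background of both iron-deficient arrays, and without it the limits there were 10.5 and 9.6, with 10 probe sets above on all arrays. The diets were tested with limma on log2 signals over the 27022 probe sets whose mean signal (taken on the log2 scale) was at least 17.3. This limit left 10 probe sets of 7 member genes. Krt5, Psca, 3 of 4 Trp63 probe sets and 1 of 4 Upk1b probe sets were too dim to be tested.

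**Figure D1:**
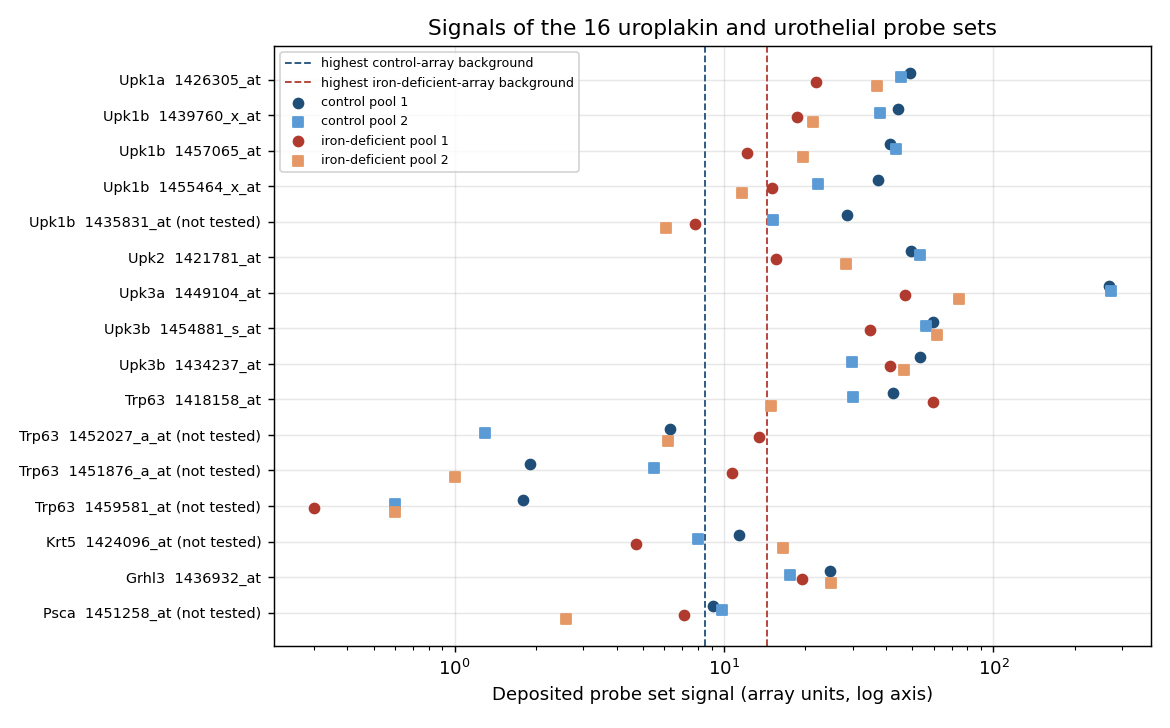
Deposited signal (array units, log axis) of each of the 16 probe sets in the 2 control pools (blue) and the 2 iron-deficient pools (red and orange), with dashed lines at the higher of each diet's array backgrounds (8.5 and 14.4). Upk3a is the brightest, at 269.5 and 272.3 under the control diet, against 46.8 and 74.4 under iron deficiency, and no other member exceeds 61.8.

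The arrays differed in more than diet. Iron-deficient pool 1 stood apart, with a correlation of its log2 signals across tested probe sets, which are not independent replicates, of 0.883 to 0.913 with the other arrays, against 0.97 to 0.978 among those. Its probe set at the 5′ end of 18S ribosomal RNA, a quality control, read 2144.5, against 243 to 291.9 elsewhere. The median spiked hybridisation control was 1.78 times the control-pool mean on that array and 0.872 to 1.23 times on the others, while the ratio of 3′ to 5′ Actb signal was 1.64 there and 1.38 to 1.49 elsewhere. The labels give every sample as female, yet the Y-linked Eif2s3y read 594.5 and 600 under the control diet, against 253.6 and 20.8 under iron deficiency, and Xist read 926.6 and 167.8 against 3427 and 1543. The kidney genes Wt1, Emx2 and Calb1 were above background on all arrays. The part of these array differences in the results that follow was not tested.

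Signals of 4 uroplakins, Upk3a, Upk2, Upk1b and Upk1a, were below those of both control pools in each of the iron-deficient pools, with Upk3a the furthest apart. Upk3b, Trp63 and Grhl3 overlapped between the diets, and Krt5 and Psca were at or near background. No member passed the limma test after Benjamini-Hochberg adjustment over all probe sets, where 0.0% of 27022 were called higher and 0.0% lower. At an unadjusted p under 0.05, 5 of the 10 tested probe sets were lower and 0 higher, where 2.81% and 1.14% of all tested probe sets lay there. These 5 belong to 3 genes, since 3 of them measure Upk1b. Both iron-deficient pools lay below both control pools for 6 of 10 probe sets and above both for 0, against 25.0% and 11.8% of all tested probe sets. The median log2 difference, iron-deficient minus control, was -0.88 over the 10 and -0.103 over all 27022. With 1 probe set per gene it was -0.73 over 7 genes. The 2 pools of a diet cannot bring an exact two-sided permutation test of a single probe set below p = 0.333.

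**Figure D2:**
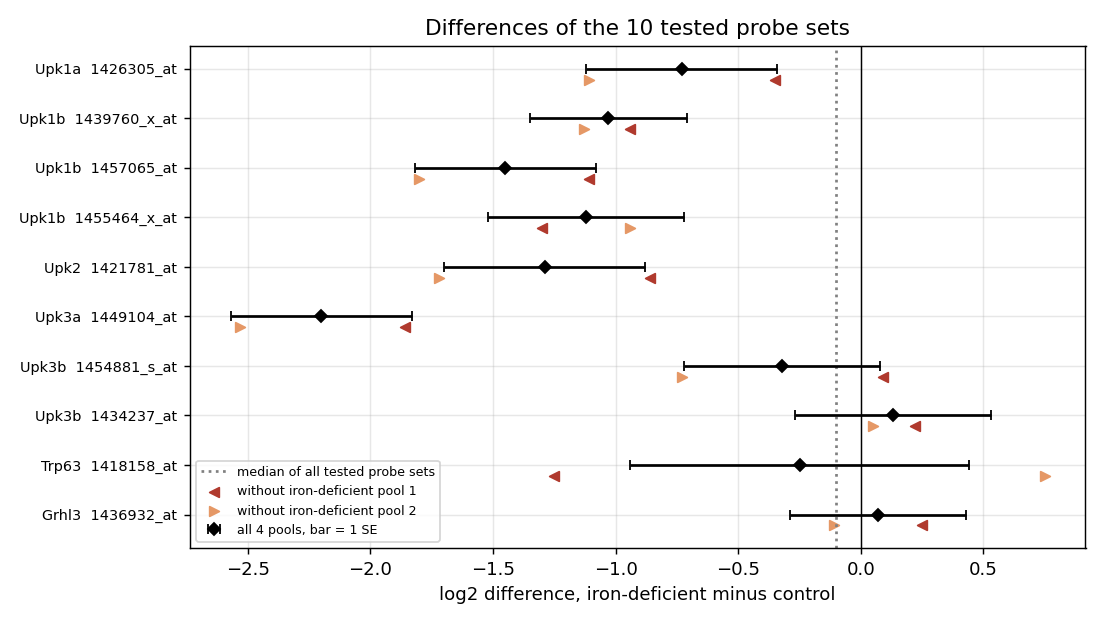
Log2 differences (iron-deficient minus control) for the 10 tested probe sets (diamonds, bars of 1 SE, limma), with the estimates when either iron-deficient pool is left out (triangles) and the median of all tested probe sets at -0.103 (dotted). Upk1a, Upk1b, Upk2 and Upk3a stay below 0 without either pool, as their separated pools require, while Trp63 runs from -1.25 to 0.75.

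Upk3a encodes uroplakin 3a, the partner of UPK1B, which spans the membrane once and has a cytoplasmic tail. Its only probe set (1449104_at) read 269.5 and 272.3 under the control diet (pools 1 and 2), against 46.8 and 74.4 under iron deficiency. The control pools lay close together, and both iron-deficient pools were far below them, at 17.3% and 27.5% of the control mean. The log2 difference was -2.20 ± 0.37 (SE, n = 2 pools per diet), a 4.59-fold lower signal, with a 95% interval from -3.12 to -1.28 (limma). The unadjusted p of 0.00136 ranked it 54 of 27022, with a limma adjusted p of 0.666. With every array shifted to a common median, limma gave an adjusted p of 0.02 at a difference of -2.21 (0.000507 to 1.0 over the alternatives). With iron-deficient pool 1 left out, the pool on the array that stood apart, the difference was -1.86, and with pool 2 left out it was -2.53.

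Upk2 encodes the small uroplakin that pairs with UPK1A and whose gene is a classical urothelial marker. Its probe set (1421781_at) read 49.6 and 53.6 under the control diet, against 15.6 and 28.4 under iron deficiency, so that the diets did not overlap. The difference was -1.29 ± 0.41 (SE), with a 95% interval from -2.31 to -0.28 and a limma adjusted p of 0.852. It was -0.86 without iron-deficient pool 1, whose signal of 15.6 was close to that array's background of 14.4, and -1.72 without iron-deficient pool 2.

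Upk1b, the tetraspanin that also serves as partner of UPK3B, was measured by 4 probe sets, and all 4 were lower in both iron-deficient pools. The brightest (1439760_x_at) read 44.2 and 38 under the control diet, against 18.7 and 21.4 under iron deficiency, a difference of -1.03 ± 0.32 (SE). The second (1457065_at) read 41.4 and 43.6 against 12.2 and 19.7, a difference of -1.45 ± 0.37, and the lower of these signals was not above background. The third (1455464_x_at) read 37.3 and 22.4 against 15.1 and 11.7, a difference of -1.12 ± 0.40, with the 11.7 not above background. The dimmest (1435831_at), which was not tested, read 28.5 and 15.2 against 7.8 and 6.1. Because both iron-deficient signals lay below background, it was at least 1.5-fold lower, on means of log2 signals with the dim side set to background. Limma gave the 3 tested probe sets unadjusted p of 0.0203, 0.00948 and 0.0329, and an adjusted p of 0.852 for each. The 4 probe sets derive from 3 sequence records and share their RNA, so they are not independent measurements. Those with names ending in x_at may hybridise to other transcripts.

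Upk1a, the tetraspanin partner of UPK2, had signals (1426305_at) of 49.2 and 45.4 under the control diet, against 21.9 and 37 under iron deficiency. The pools did not overlap, but iron-deficient pool 2 kept 78.2% of the control mean and pool 1 kept 46.3%. The difference was -0.73 ± 0.39 (SE), with a 95% interval from -1.70 to 0.23 and a limma adjusted p of 0.852. It was -0.35 with iron-deficient pool 1 left out and -1.11 with pool 2 left out.

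Upk3b, the relative of Upk3a, was the uroplakin whose diets overlapped. One probe set (1454881_s_at) read 59.9 and 56 under the control diet, against 34.8 and 61.8 under iron deficiency. Only iron-deficient pool 1 was below both controls, and the difference of -0.32 ± 0.40 (SE) became 0.09 without that pool. The other probe set (1434237_at) read 53.5 and 29.9 against 41.4 and 46.5, a difference of 0.13 ± 0.40, with a 95% interval from -0.87 to 1.14. Both derive from 1 sequence record, and the suffix s_at marks probes shared by several transcripts, so the assignment of the first is uncertain. Limma adjusted p-values were 0.859 and 0.933, and the 95% interval of the first ran from -1.32 to 0.68.

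**Figure D3:**
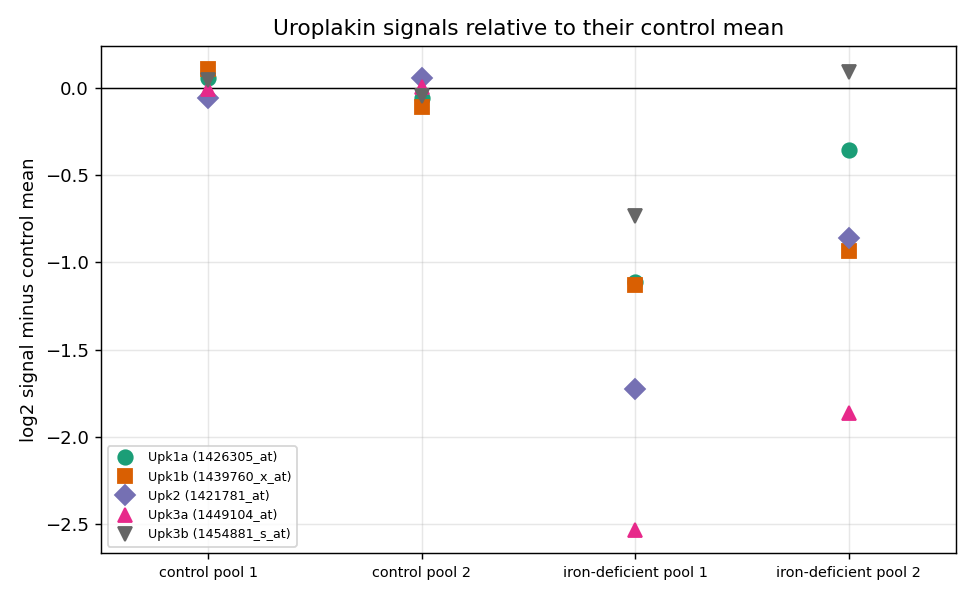
Log2 signal of the brightest probe set of each uroplakin on each array, minus its mean over the 2 control pools. The control pools lie near 0, and in each iron-deficient pool Upk3a is lowest and Upk3b highest of the 5.

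The differences between the diets were unequal among the uroplakins, with Upk3b overlapping. This was examined within arrays, where a common scaling of the array cancels. Background does not cancel. In iron-deficient pool 1 Upk2 at 15.6 and Upk1b at 18.7 lay close to the background of 14.4. Upk3a was far brighter under the control diet, at 269.5 and 272.3, and so had more room to be lower. The part of background in the gaps below was not tested. Relative to its control mean, the log2 signal of Upk3a minus that of Upk3b was -0.06 and 0.06 under the control diet, against -1.80 and -1.96 under iron deficiency. With these probe sets the iron-deficient values were alike in both pools although the 2 pools differed in each gene by itself. The brightest tested probe set stood for each gene in all pairs. The other Upk3b probe set read 53.5 and 29.9 in the control pools, further apart than the one used. Pairs with it or with the other Upk1b probe sets were not computed, and their values may differ. For the partners Upk1b and Upk3a, Upk1b minus Upk3a was 0.12 and -0.12 under the control diet, against 1.40 and 0.93 under iron deficiency. For the partners Upk1a and Upk2, Upk1a minus Upk2 was 0.11 and -0.11 under the control diet, against 0.61 and 0.51 under iron deficiency. Upk3a minus Upk2 differed by -0.91, with separated pools, and Upk1b minus Upk1a by -0.30, with overlapping pools. In all, 5 pairs were compared, and the exact two-sided permutation test gave p = 0.333, the smallest it can give, for the 4 separated pairs (0.417 adjusted over the pairs) and p = 0.667 for the other.

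Iron-deficient pool 1 had the lower signal of the 2 iron-deficient pools for 7 of 9 uroplakin probe sets. Pool by pool, the median log2 difference of the 10 tested probe sets from the control mean was -1.02 in the first of these pools and -0.90 in the other. In each 7 of the 10 lay below both controls. Above both controls lay 1 in pool 1 and 2 in pool 2. The share of all tested probe sets outside both controls in a single pool was not computed. The 25.0% and 11.8% given above are for both pools together and are no background for these counts. Of the 9 uroplakin probe sets, 4 measure Upk1b and 2 measure Upk3b. How many of all tested probe sets were likewise lower in pool 1 than in pool 2 was not computed. The array of pool 1 stood apart, so the 7 of 9 is no reading of the uroplakins as such.

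The genes of the basal layer gave no common direction. Trp63, which encodes p63, the factor that maintains basal cells, had a tested probe set (1418158_at) that read 42.2 and 30.1 under the control diet, against 59.9 and 15 under iron deficiency. The iron-deficient pools lay on either side of the controls, and the difference of -0.25 ± 0.69 (SE) came to 0.75 with iron-deficient pool 2 left out and to -1.25 with pool 1 left out. Its other probe sets did not exceed 6.3 in control pools, and their highest signal was 13.5, in iron-deficient pool 1. Krt5, the basal keratin, read 11.4 and 8 under the control diet, against 4.7 and 16.5 under iron deficiency (1424096_at). It was above background in 1 pool of each diet, so no difference is given. Krt5 RNA was thus barely measured here, and it gives no reading of the basal layer. Whether basal cells carry keratin 5 at this stage was not tested.

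Grhl3 and Psca are linked to the differentiated urothelium. Grhl3 (1436932_at) read 24.8 and 17.6 under the control diet, against 19.4 and 24.9 under iron deficiency, with full overlap. Its difference was 0.07 ± 0.36 (SE), with a 95% interval from -0.83 to 0.97, and it turned to -0.02 after quantile normalization. Psca, a small surface protein anchored by a lipid (1451258_at), read 9.1 and 9.8 in control pools, just above background. It read 7.1 and 2.6 in iron-deficient pools, below background there, and gives no fold, since the bound set by the higher background of those arrays exceeds the control signal.

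Other genes of the urothelium were read from lists chosen by name, with the brightest probe set standing for each gene. No gene of these lists passed the limma test over all probe sets. Of 10 genes of uroplakin transport and family, 9 were tested, of which 4 were lower and 2 higher in both iron-deficient pools, with a median of -0.29, or -0.07 without iron-deficient pool 1 and -0.61 without pool 2. Over all tested probe sets, as above, 25.0% were lower in both and 11.8% higher in both, and these shares stand beside each such count. They are over probe sets, while the lists take the brightest probe set of each gene, for which the share was not computed. Mal, a raft protein that takes part in the delivery of uroplakins to the surface, read 1167 and 1156 under the control diet, against 411.8 and 755.7 under iron deficiency, a difference of -1.06 ± 0.41 (SE, limma unadjusted p of 0.0438). Tspan8, a tetraspanin, differed by -0.74 ± 0.31 and Vps33a, a factor of membrane fusion, by -0.92 ± 0.40. Upk3bl, a gene related to Upk3b, went the other way, with 18.2 and 18.3 under the control diet, against 22.2 and 35.5 under iron deficiency (0.62 ± 0.37). Without iron-deficient pool 1, Mal was at -0.62 and Vps33a at -0.49, and without pool 2 Upk3bl was at 0.28.

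Transcription factors of the urothelium had a median of 0.16 over 12 tested of 13 genes, with 2 lower and 1 higher in both iron-deficient pools and 0 at an unadjusted p under 0.05. Elf3, an ETS factor of epithelial differentiation, read 61.5 and 74.1 under the control diet, against 80.1 and 140.4 under iron deficiency (0.65 ± 0.40). The pioneer factor Foxa1 differed by -0.50 ± 0.33. Grhl1 differed by 0.54 ± 0.50 and Tfap2a by 0.42 ± 0.43, and both turned below 0 without iron-deficient pool 1, at -0.11 and -0.03. The other probe sets of Tfap2a disagreed with each other, at -0.46 and 0.26. With iron-deficient pool 1 left out the list's median was 0.04, and with pool 2 left out it was -0.08, where Elf3 was at 0.25 and Foxa1 at -0.32. The nuclear receptor Pparg differed by 0.11 ± 0.41 and Gata3 by -0.17 ± 0.31, and Pparg ran from -0.33 without pool 2 to 0.55 without pool 1.

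Keratins and junction genes had a median of -0.11 over 10 tested of 15 genes, with 2 lower and 2 higher in both iron-deficient pools, and leaving out iron-deficient pool 1 moved the median to 0.23, leaving out pool 2 to -0.53. Krt20, the keratin of umbrella cells at the surface, read 21.3 and 22.2 under the control diet, against 13.5 and 14.7 under iron deficiency (-0.63 ± 0.31), with the 13.5 not above background. Krt7 read 781.6 and 985.2 against 319 and 710.2 (-0.88 ± 0.48), and the difference was -0.31 without iron-deficient pool 1. The pan-epithelial Epcam differed by 0.44 ± 0.34 and the junction protein gene Tjp3 by 0.58 ± 0.35, or 0.23 for Epcam without pool 1 and 0.32 for Tjp3 without pool 2. Krt13 and Krt17 were above background on no array.

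Targets of p63 and genes of basal adhesion had a median of -0.02 over 10 tested of 13 on the array, with 3 lower and 1 higher in both iron-deficient pools. Leaving out iron-deficient pool 1 brought it to 0.01, and leaving out pool 2 to -0.39. Perp, a desmosome gene under p63, read 532.4 and 515.8 under the control diet, against 268.4 and 261.2 under iron deficiency, with little spread within a diet. It differed by -0.98 ± 0.31 (SE, limma unadjusted p of 0.0213, adjusted p of 0.852). The laminin chain Lama3 differed by -0.98 ± 0.42, Ngfr by -0.70 ± 0.39 and Sfn by -0.77 ± 0.58, and without iron-deficient pool 1 Ngfr was at -0.34 and Sfn at 0.04. Signals that act on the ureter epithelium had a median of -0.04 over 14 tested of 15 genes, with 3 lower and 3 higher in both iron-deficient pools, and that median was 0.04 after quantile normalization, 0.09 without iron-deficient pool 1 and -0.19 without pool 2. Among them Wnt7b, a Wnt ligand of the ureteric epithelium, differed by -0.99 ± 0.48 and the hedgehog receptor Ptch1 by 0.53 ± 0.33, while Fgf7 and Fgf10 differed by 0.65 ± 0.47 and 0.54 ± 0.42. Without iron-deficient pool 1, Wnt7b was at -0.38, Ptch1 at 0.32 and Fgf10 at 0.08, and without pool 2 Fgf7 was at 0.33.

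**Figure D4:**
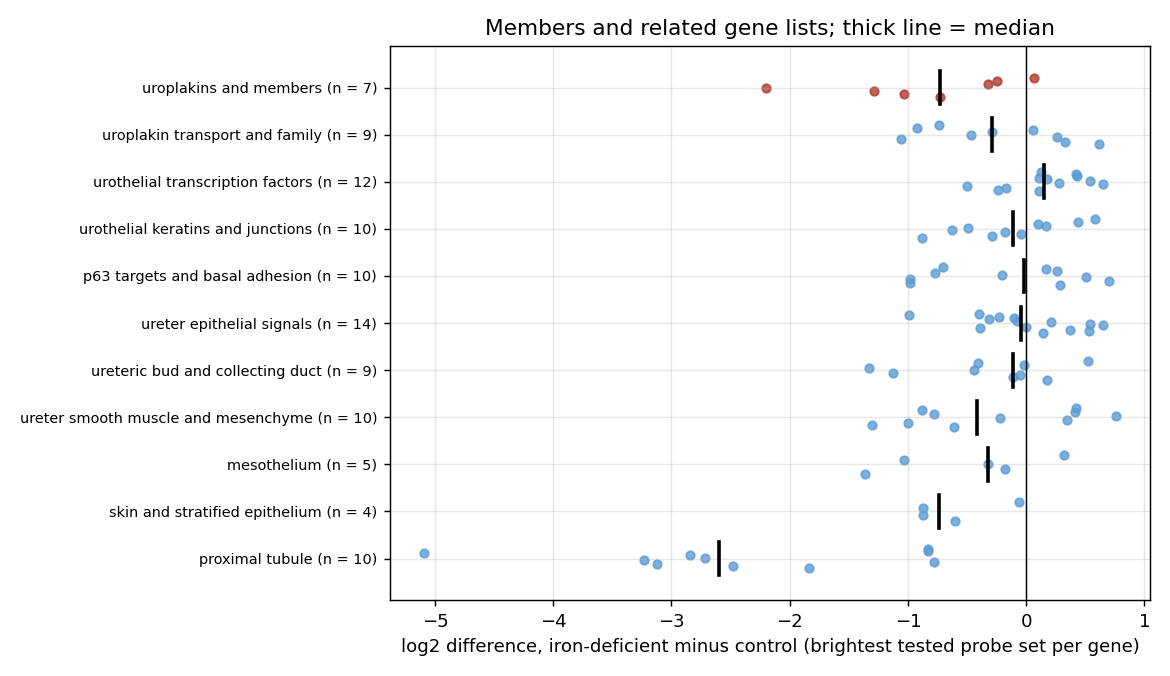
Log2 difference, iron-deficient minus control, for the brightest tested probe set of each gene in the member group (red, 7 genes) and in 10 related lists (blue), with the median of each as a thick line. Medians run from 0.16 for the urothelial transcription factors to -2.60 for the proximal tubule, and that of the members is -0.73.

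Among markers of other cells the proximal tubule genes were furthest below the control pools. In pooled kidney RNA fewer cells of a type and less RNA per cell cannot be told apart. All 10 proximal tubule markers were lower in both iron-deficient pools, with a median of -2.60, and their summed signal was 6321 and 6282 under the control diet, against 1602 and 2757 under iron deficiency. The summed signal of 10 ureteric bud and collecting duct markers was 5973 and 6050 against 6732 and 6020, with 3 of 9 tested genes lower in both and 0 higher, against the 25.0% and 11.8% of all tested probe sets, and a median of -0.11. The genes with the smallest p there were Avpr2 (-1.33 ± 0.32) and Aqp2 (-1.13 ± 0.43), the vasopressin receptor and water channel of the collecting duct. Etv5, which is bright in that sum, read 871.6 and 698.3 against 1925.6 and 648.9 (0.52 ± 0.57). Ureter smooth muscle and mesenchyme, which would come with attached ureter, had summed signals of 5590 and 5534 against 5562 and 5041. Tshz3 alone read 992.4 and 838.6 against 2911.5 and 821.1, and the other 10 genes, summed without it after the values were seen, gave 4598 and 4695 against 2650 and 4220. Both pools under iron deficiency were then below both controls. Acta2 had the largest part of that sum, at 2040 and 2191 against 1158.8 and 1654.8. The sum without Acta2 as well was not computed, so the lower sum is no reading of the list as a whole. In that list 4 of 10 tested genes were lower in both and 0 higher, with a median of -0.42, or -0.17 without iron-deficient pool 1. The 4 were Acta2, Tagln, Actg2 and Myh11, a myosin of smooth muscle, the last at -1.30 ± 0.41, or -0.86 without iron-deficient pool 1. Acta2, Tagln and Actg2 differed by -0.61 ± 0.35, -1.0 ± 0.59 and -0.88 ± 0.50, and came to -0.35, -0.17 and -0.27 without iron-deficient pool 1. Another 4 genes of the list overlapped between the diets with differences above 0, Tshz3 (0.76 ± 0.64), Synpo2 (0.42 ± 0.37), Des (0.41 ± 0.52) and Myocd (0.35 ± 0.52), while other probe sets of Synpo2 ran from -1.53 to 0.29.

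The mesothelial list holds Upk1b and Upk3b themselves. Of its other genes Msln, Lrrn4, Bnc1 and Muc16 were too dim to be tested, Gpm6a differed by -1.36 ± 0.35, Krt19 by -0.18 ± 0.50 and Wt1 by 0.32 ± 0.31. The summed signal was 2678 and 2971 against 2495 and 3270, most of it Krt19 and Wt1, which kidney cells also express. Without these, again left out after the values were seen, it was 477 and 467 against 250 and 249, with Upk1b and Upk3b in it. Gpm6a alone read 318.7 and 347.6 against 155.0 and 108.7. This 1 gene made up most of the sum on the control arrays, so the lower sum is no reading of the list as a whole. The list's median was -0.32, or 0.09 without iron-deficient pool 1 and -0.79 without pool 2. In the skin list 7 of 11 genes were too dim to be tested. The median of the other 4 was -0.74, close to the members' -0.73, or -0.07 without iron-deficient pool 1 and -1.16 without pool 2. Of the 4, Lor (-0.87 ± 0.41) and Krt1 (-0.60 ± 0.45) were lower in both pools, Krt10 (-0.87 ± 0.64) and Ivl (-0.06 ± 0.31) overlapped, and Krt6a, Flg and Dsg1a were above background on no array. Its summed signal, mostly Krt10, was 555.3 and 405.3 against 211.1 and 465.4. No gene of these lists was listed at 0. The part of these cell types in the uroplakin differences was not tested.

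The genes most like each uroplakin were found by the root mean square difference, over the 4 arrays, of log2 deviations from the gene's own mean. Nearest to Upk3a were Keg1, Kcnj15 and Slc23a1, at 0.0708, 0.08 and 0.097 log2 units, and only these 3 probe sets lay within 0.1. Slc23a1 read 6.2 and 11.7 in the iron-deficient pools, not above the background of those arrays. Keg1 read 458.9 and 440.9 under the control diet, against 73.5 and 132.9 under iron deficiency. For Upk2 the nearest were Rab3il1, Cfb and Tmem25, with 36 probe sets within 0.1, and for Upk1b they were Ak7, Acer3 and Zfp759, with 65. Upk1a (Rec8, Alg1 and Mettl1) had 542 probe sets within 0.1 and Upk3b (Gbf1, Gse1 and Pmpcb) had 1246, so that their patterns were common on these arrays. Among the other uroplakins Upk2 was nearest to Upk3a, at 0.46, which made it the probe set of rank 187 by closeness, among tested probe sets with 1 symbol. From the side of Upk2, Upk3a had rank 4702. That 187 was the smallest rank of any uroplakin pair, and the others ran from 528 to 21994. No uroplakin was thus among the 3 genes most like another.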

How the data were processed

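Total RNA of 4 kidney pools was labelled with biotin and, per the labels' protocols, hybridised to 1 array each. The files hold deposited linear intensity values per probe set, from 0 to 13763, and the mean of each array after trimming 2% at each end is 250.0. RMA is named in the submitters' processing notes, although values made that way would be logarithmic and share a distribution, and the software is otherwise not given in the sources used here. Pools and diets were read from the labels, and no column was left unused. Zeros (1 to 3 per array) were set to 0.1, 64 control probe sets and the lowest 40% of 45037 by mean log2 signal were left out, and diet was tested with limma 3.58.1 (lmFit and eBayes, R 4.3.3, two-sided). P-values were adjusted by Benjamini-Hochberg over 27022 probe sets, with 2 residual and 3.49 prior degrees of freedom. The number of arrays limits the precision. The procedure was tested on simulated log2 values with the same spread on every array. These hold no array that stands apart, as iron-deficient pool 1 does, so they do not vouch for the p-values here. Of the probe sets, 34945 have 1 symbol, 932 several and 9160 none. The members and gene lists (119 genes in 10 lists) were chosen with earlier results of these data known. In the text stand all member probe sets, up to 4 genes per list by smallest p, the 3 nearest genes of each uroplakin, and Pparg, Gata3, Emx2, Calb1 and the genes named as dim or as leading a summed signal or going against their list, picked after their values were seen. Alternatives changed the scaling, the filter, the offset, the variance model, the probe sets per gene and the pools used.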

Additional observations from a re-analysis of the deposited data

How the results depend on the processing

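The differences of Upk1a, Upk1b, Upk2 and Upk3a stayed negative under every alternative that could be run for them, and single member probe sets kept direction and side of the threshold in 130 of 138 values. Much of this was fixed in advance. Changing only the filter, the variance model or the block leaves each difference as it was. Where both iron-deficient pools lay below both controls, leaving out 1 pool cannot turn the sign. Upk3a passed after median centring (-2.21) and with the replicate block (-2.20), so 1 member was called under each, against 0 otherwise. The pool numbers share only a number: the deviations of same-numbered pools correlated at 0.357 across probe sets in a single pair, which gives no pairing. With the block, limma called 261 probe sets higher and 218 lower, and 7 of the proximal tubule list, against 82, 119 and 6 after median centring. With 1 probe set per gene 1 was called higher and 12 lower, with 3 members at an unadjusted p under 0.05 and a median of -0.73. That member count was 3 with an intensity trend and 3 with an offset of 16, which brought the median to -0.56. With the lowest 60% left out, a limit at 82.2, only Upk3a stayed, so the counts were 1 and 1 separated and the median was -2.20. Grhl3 turned to -0.02 after quantile normalization. The causes of these shifts, beyond fewer probe sets tested, were not tested.

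When 1 pool was left out, the lone pool was assumed to vary like the others. Over all probe sets 0 to 42 were then called higher and 0 to 33 lower, 0 members and 0 to 2 proximal tubule genes. The members' median ran from -1.02 to -0.71. Member probe sets with separated pools ran from 6 to 7 lower and from 0 to 2 higher. With fewer pools separation is easier to reach, and its share over all probe sets was not computed for these fits. Upk3b ran from -0.73 to 0.09 and, for its dimmer probe set, from -0.29 to 0.55, Trp63 from -1.25 to 0.75 and Grhl3 from -0.17 to 0.32. Setting signals below background to background was chosen after seeing the data and changed no call. Signal over background limits Krt5, Psca and the dim Trp63 probe sets.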
